A study of Arabidopsis thaliana with 12 samples.

Results

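The SAUR genes (small auxin up RNA) are a large plant family of short, mostly intron-less genes, many of which are transcribed within minutes of an auxin pulse. The members described here were chosen by gene identifier from a list of 56 SAUR genes, and a member was tested where both tables held it and its value reached 10 in 3 or more of the 12 libraries. Of the 56, 54 were in both tables and 52 passed, out of 20623 genes tested in all and 21623 in both tables. SAUR54 (AT1G19830) and SAUR38 (AT2G24400) fell below the minimum, and SAUR39 (AT3G43120) and SAUR11 (AT5G66260) were in neither table. The values that chose the members are the same ones compared below, and the list was drawn up with results of these data in view, so counts over the members are given as description. Of the 52, 24 reached the minimum in fewer than 3 SNP libraries and 2 in fewer than 3 Mock libraries. For a member that passed only through the treatment where it was high, the minimum itself favoured a difference. The p-values of such members are therefore description too. Among them are SAUR1, SAUR15, SAUR16, SAUR21, SAUR34, SAUR35, SAUR65 and SAUR66. Just inside the minimum were SAUR68 (AT1G29490) and SAUR10 (AT2G18010), with 3 libraries each, and just outside was SAUR38, with 1 library at a value of 11.6.

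RNA was sequenced from whole Arabidopsis thaliana seedlings 7 days after germination, in 4 groups of 3 libraries. These were the ap1/cal mutant, which carries mutations in the flower meristem regulators AP1 and CAL, kept for 24 h on medium with 1 mM sodium nitroprusside (SNP, a donor of nitric oxide), the same mutant on medium without it (Mock), the wild type Col-0 with SNP, and Col-0 Mock. All groups shared medium, light regime and age. The methods, in a passage on shoot apices, call the 3 replicates of each condition biological. Neither they nor the labels say how many seedlings a library pooled or whether the seedlings came from separate cultures, and the p-values measure the spread between these libraries. SNP also releases other products than nitric oxide, and no group received a control for them. In whole seedlings, fewer cells of a type and less RNA per cell cannot be told apart.

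SAUR proteins promote cell expansion. Those studied best bind and inhibit type 2C protein phosphatases of clade D (PP2C-D), which otherwise remove an activating phosphate from the proton pumps of the plasma membrane (AHA proteins). With the pumps active, protons leave the cell, the wall becomes acidic and loosens, and the cell takes up water and elongates. Many SAUR genes sit in tandem clusters whose copies share sequence and expression, and single genes of the family have more varied roles, in the apical hook, in shade and heat growth and in leaf senescence.

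Values are the deposited normalized signal per gene, and 4 group means were fitted to log2(value + 1) with limma over all 20623 genes. A gene is called where the Benjamini-Hochberg adjusted p over all genes is below 0.05 and the fold is at least 1.5. Fold changes on this scale understate the change of low genes. The libraries held 22.5 to 59.7 estimated reads in units of 1e6. The median change of all genes was -0.04 in ap1/cal and -0.02 in Col-0. When each library was scaled to the same sum instead, it was -0.74 in ap1/cal and -0.51 in Col-0, because the normalized sums of SNP libraries were larger. In the same tables, 3 marker genes of root hairs and root epidermis had a summed signal of 13.3 to 40.3 in ap1/cal SNP, against 2577 to 2720 in ap1/cal Mock, and of 84.0 to 103 in Col-0 SNP, against 1620 to 1882 in Col-0 Mock, and all 3 were called lower in both genotypes. For 3 markers of root ground tissue and root tip, the sum was 220.4 to 271 in ap1/cal SNP, against 777 to 964 in ap1/cal Mock, and 368 to 403 in Col-0 SNP, against 817 to 834 in Col-0 Mock. Most of this sum was SCR, with a mean of 772 in Col-0 Mock, against 35.9 for PLT1 and 17.5 for PLT2. Of the 3, 2 were called lower in ap1/cal (SCR and PLT1) and 1 in Col-0 (SCR). PLT2 changed by -0.49 in ap1/cal and 0.64 in Col-0 and was called in neither. Of 4 green tissue markers, 0 were called lower and 2 higher in each genotype, and their sum, divided by 1000, was 1234 to 1488 in ap1/cal SNP, against 969 to 1274 in ap1/cal Mock, and 1214 to 1274 in Col-0 SNP, against 895 to 1061 in Col-0 Mock. The part of these tissue markers in the SAUR results was not tested.

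After SNP, most SAUR transcripts were much lower. In ap1/cal, 38 of the 52 members were called lower and 6 higher, where 33.0% and 29.8% of all genes were called in those directions. In Col-0, 39 were called lower and 6 higher, against 29.1% and 26.9% of all genes. The median log2 fold change over the 52 was -3.00 in ap1/cal and -3.07 in Col-0, and with the members that had no read in SNP placed at the bound their Mock level allows it was -2.91 in ap1/cal and -3.03 in Col-0. In both genotypes 37 were lower and 4 higher (SAUR34, SAUR35, SAUR41 and SAUR59, of which SAUR41 lost its call in ap1/cal with library-size scaling). SAUR55 was higher in ap1/cal and lower in Col-0, and its rise in ap1/cal lost its call with library-size or upper-quartile scaling. The other calls were in 1 genotype, with SAUR71 higher and SAUR53 lower in ap1/cal, and SAUR52 and SAUR69 higher and SAUR33 lower in Col-0. SAUR12, SAUR30, SAUR45, SAUR51 and SAUR70 were called in neither, though each was called under some of the alternatives given below. Across the 52 members, the changes in ap1/cal and Col-0 had a Pearson correlation of 0.97 and a Spearman correlation of 0.96, over 2 sets of libraries that share no control. No value over all genes is set beside these correlations, and for members with no read in SNP the change is set by the Mock level. The correlations are thus description.

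**Figure D1:**
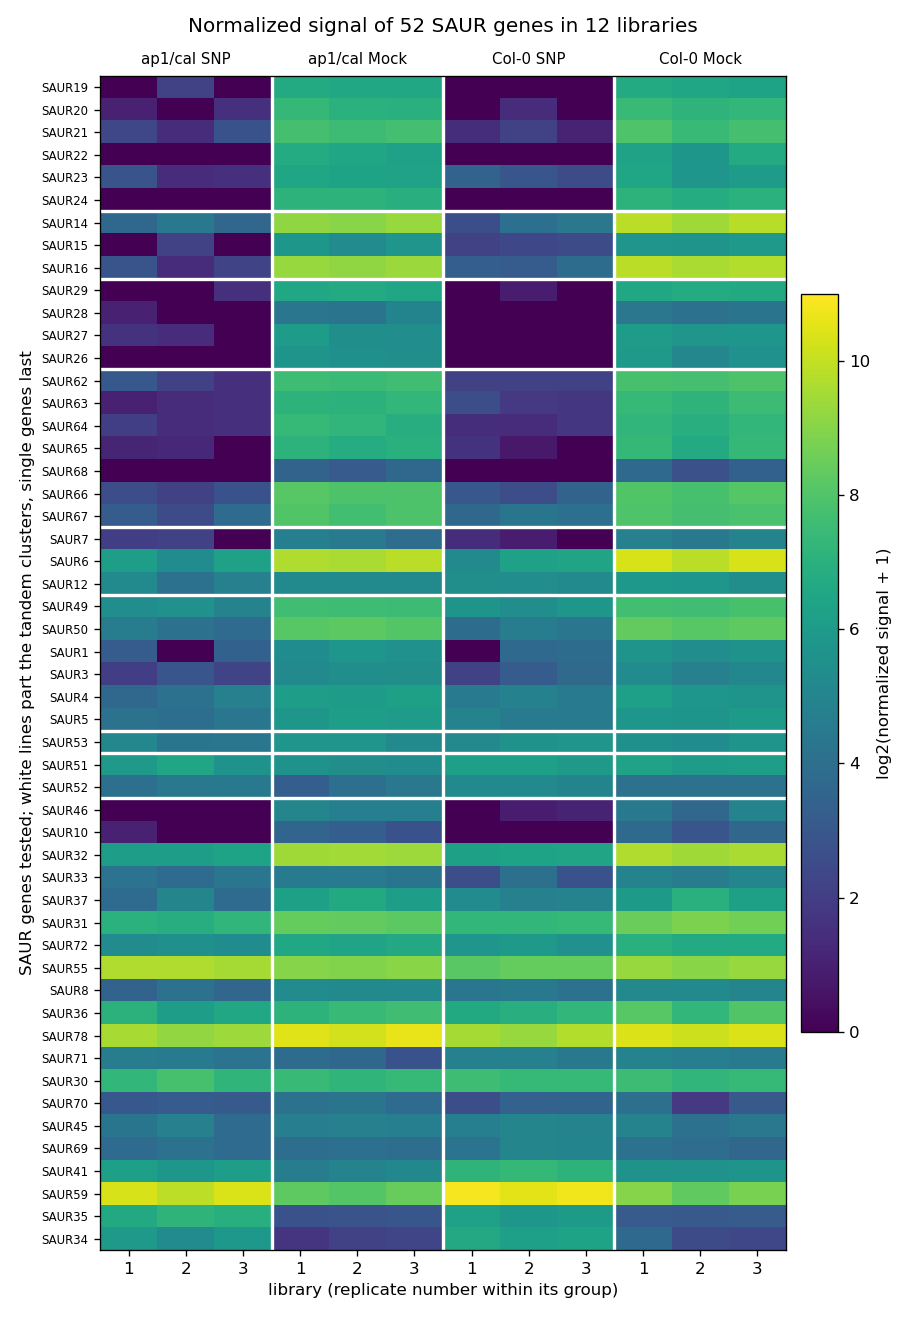
Heat map of the normalized signal, as log2(signal + 1), of the 52 SAUR genes tested (rows, parted by tandem cluster, single genes last) in the 12 libraries (columns, 3 per group). In the 4 upper clusters the SNP columns are dark and the Mock columns bright in both genotypes, while SAUR59, SAUR34 and SAUR35 at the bottom are brighter in SNP.

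Of the 56 listed members, 33 lie in 8 tandem clusters, defined as runs of members whose locus numbers follow each other by at most 30, and 32 of these were tested. The 32 had a median change of -4.64 in ap1/cal, with 29 called lower and 0 higher, and of -4.21 in Col-0, with 28 lower and 1 higher. The 20 single members had a median of -0.62 in ap1/cal, with 9 lower and 6 higher, and of -0.83 in Col-0, with 11 lower and 5 higher. The clustered members thus held most of the deep falls, and the single members all but 1 of the rises.

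The SAUR19 to SAUR24 cluster on chromosome 5 encodes proteins that, when stabilized, enlarge cells of hypocotyls and leaves through inhibition of PP2C-D phosphatases. All 6 genes were called lower in both genotypes, with a median of -6.09 in ap1/cal and -6.42 in Col-0 (-5.96 in ap1/cal and -6.25 in Col-0 with unread members at their bound). SAUR24 (AT5G18080) had 0 in all 3 ap1/cal SNP libraries, against 138, 135 and 122 in the ap1/cal Mock libraries. The Col-0 SNP libraries held 0 in all 3, against 139, 109.9 and 130.0 in the Col-0 Mock libraries. Not 1 read was left in the 6 SNP libraries, and with a floor of 3 reads over the 3 libraries of a group, SAUR24 was at least 92.5-fold lower in ap1/cal and at least 111-fold lower in Col-0. SAUR22 (AT5G18050) had 0 in all 3 ap1/cal SNP libraries, against 109, 86.4 and 77.2 in the ap1/cal Mock libraries. With SNP, Col-0 gave 0 in all 3, against 81.1, 56.4 and 105 in Col-0 Mock. It was likewise unread in SNP and at least 63.6-fold lower in ap1/cal and at least 71-fold lower in Col-0. SAUR20 (AT5G18020) had 1.03, 0 and 1.92 in the ap1/cal SNP libraries, against 159, 131 and 125 in the ap1/cal Mock libraries. Col-0 seedlings showed 0, 1.66 and 0 with SNP, against 177, 143 and 155 in Mock. Its 2 reads in each set of SNP libraries put the Mock over SNP ratio at 145 (39.9 to 1198) in ap1/cal and 209.8 (57.8 to 1736) in Col-0 (95% exact interval, counting error only). SAUR19 (AT5G18010) had 0, 3.31 and 0 in the ap1/cal SNP libraries, against 104, 95.1 and 95.5 in the ap1/cal Mock libraries. The values in Col-0 were 0 in all 3 with SNP, against 104, 90.2 and 82.4 in Mock. The SNP values again lay far below every Mock value, with a ratio of 103 (28.3 to 850.2) in ap1/cal and at least 81.1-fold lower signal in Col-0. SAUR21 (AT5G18030), the highest of the cluster, had 4.1, 1.66 and 5.76 in the ap1/cal SNP libraries, against 215, 186 and 209 in the ap1/cal Mock libraries, and 1.74, 3.32 and 1.17 in the Col-0 SNP libraries, against 252, 175 and 212 in the Col-0 Mock libraries. Its log2 fold change was -5.50 (SE 0.34, adjusted p = 3.9e-09) in ap1/cal and -6.16 (SE 0.34, adjusted p = 1.8e-09) in Col-0 by limma. SAUR23 (AT5G18060) kept the most signal, 3.87% of its Mock mean in ap1/cal and 10.6% in Col-0. SAUR19, SAUR20, SAUR21 and SAUR24 share few windows of 75 bases with each other, at most 2.15% of those of a transcript for any pair, and 2.5% of those of SAUR19 over its 3 partners.

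The stretches before the start of 3 members that fell are shown because TGTCTC, the core to which auxin response factors can bind, occurs in each. They are the 200 bases upstream of the annotated gene start, read 5′ to 3′ from the RefSeq TAIR10.1 assembly with its own annotation (the authors aligned to TAIR10), with matches in capitals and GAGACA marking the motif on the other strand. SAUR66 lies at chr1:10320811-10321010 (forward strand), SAUR22 at chr5:5975088-5975287 (reverse strand) and SAUR20 at chr5:5966786-5966985 (reverse strand).
SAUR66: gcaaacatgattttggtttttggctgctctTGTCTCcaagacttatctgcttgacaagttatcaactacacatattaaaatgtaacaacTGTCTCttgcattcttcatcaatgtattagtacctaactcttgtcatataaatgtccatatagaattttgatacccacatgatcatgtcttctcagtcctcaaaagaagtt
SAUR22: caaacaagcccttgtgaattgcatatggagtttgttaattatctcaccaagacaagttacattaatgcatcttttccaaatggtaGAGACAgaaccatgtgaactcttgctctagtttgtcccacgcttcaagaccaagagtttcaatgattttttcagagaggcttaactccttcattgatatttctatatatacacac
SAUR20: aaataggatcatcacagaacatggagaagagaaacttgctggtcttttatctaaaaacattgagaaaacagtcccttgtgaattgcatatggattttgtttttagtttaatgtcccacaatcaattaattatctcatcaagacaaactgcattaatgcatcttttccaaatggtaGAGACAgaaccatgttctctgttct
The windows of SAUR22 and SAUR20 share a run of 41 bases that holds the GAGACA match, which begins 115 bases before the start of SAUR22 and 25 before that of SAUR20. In windows of 250 bases before the start, searched on both strands, TGTCTC was found in 7 of the 52 members (13.5%), against 10.9% of 37897 windows of all annotated nuclear genes. The variant TGTCGG was found in 2 members (3.85%), against 4.08% of all windows. Among the genes tested the shares were 10.7% for TGTCTC and 4.56% for TGTCGG. Either motif was in 17.3% of the members, against 14.6% of all windows. The 9 members with either motif were SAUR7, SAUR15, SAUR20, SAUR22, SAUR28, SAUR62, SAUR63, SAUR66 and SAUR67, which were all called lower in both genotypes, as were 37 of the 52 members. SAUR62, SAUR63, SAUR66 and SAUR67 are copies of the same cluster, and a link of motif and fall was not tested. Members with equally deep falls, SAUR24, SAUR16 and SAUR14 among them, held none of the letters searched in this window.

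The SAUR62 to SAUR68 cluster on chromosome 1 holds the SAUR63 subfamily, whose members promote elongation of hypocotyls, petals and stamen filaments. All 7 tested genes were called lower in both genotypes, with a median of -5.49 in ap1/cal and -5.29 in Col-0. SAUR66 (AT1G29500), the highest by mean signal, had 5.13, 3.31 and 5.76 in the ap1/cal SNP libraries, against 278, 240.1 and 246 in the ap1/cal Mock libraries. In Col-0 it had 6.97, 4.99 and 10.5 in the SNP libraries, against 259.7, 225 and 271 in the Mock libraries. Its log2 fold change was -5.50 (SE 0.25, adjusted p = 1.5e-10) in ap1/cal and -4.94 (SE 0.25, adjusted p = 6.6e-10) in Col-0 by limma. SAUR65 (AT1G29460) had 1.21, 1.39 and 0 in the ap1/cal SNP libraries, against 137, 112 and 127 in the ap1/cal Mock libraries. The Col-0 SNP libraries held 2.03, 0.687 and 0, against 157, 106 and 161 in the Col-0 Mock libraries. Its log2 fold change by limma was -6.17 (SE 0.42, adjusted p = 1.2e-08) in ap1/cal and -6.35 (SE 0.42, adjusted p = 1.2e-08) in Col-0. With 2 estimated reads, after rounding, left in each set of SNP libraries, its Mock over SNP ratio was 128 (35.4 to 1062) in ap1/cal and 189 (52 to 1563) in Col-0. SAUR65 has 2 annotated transcripts and its SNP values were not whole reads, so its read counts and intervals are approximate. The interval in ap1/cal overlaps that of SAUR63 there, 96.8 (33 to 471) on 3 reads. SAUR67 (AT1G29510, which RefSeq lists under the symbol SAUR68) kept 3.8% of its Mock mean in ap1/cal and 6.55% in Col-0. SAUR62, SAUR63 and SAUR64 kept between 1.09% and 2.19% over both genotypes. SAUR68 (AT1G29490), a low gene, had 0 in all 3 ap1/cal SNP libraries, against 10.3, 7.81 and 11.6 in the ap1/cal Mock libraries. With SNP, Col-0 gave 0 in all 3, against 12.5, 5.64 and 9.69 in Col-0 Mock. It was at least 6.92-fold lower in ap1/cal and at least 8.14-fold lower in Col-0. SAUR63 and SAUR67 share 22.7% and 16.2% of their windows of 75 bases, and SAUR62 shares 14.6% with AT5G27780 (SAUR75, which was not in the tables), so the split of reads between these copies is uncertain. SAUR63 and SAUR64 also overlap genes on the opposite strand, and whether counting used the strand is not given in the sources used here.

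The SAUR26 to SAUR29 cluster on chromosome 3 has been tied to growth at warm temperature. All 4 genes were called lower in both genotypes. SAUR29 (AT3G03820), the highest of the 4, had 0, 0 and 1.92 in the ap1/cal SNP libraries, against 93, 104 and 87.8 in the ap1/cal Mock libraries. Col-0 seedlings showed 0, 0.831 and 0 with SNP, against 95.9, 108 and 103 in Mock. A single read was left in each set of SNP libraries, and the Mock over SNP ratio was 204 (36.5 to 8091) in ap1/cal and 268 (47.8 to 10621) in Col-0. SAUR26 (AT3G03850) had 0 in all 3 ap1/cal SNP libraries, against 51.3, 45.1 and 42.4 in the ap1/cal Mock libraries. The values in Col-0 were 0 in all 3 with SNP, against 60.8, 32.9 and 46.8 in Mock. It was at least 32.4-fold lower in ap1/cal and at least 41.1-fold lower in Col-0. SAUR27 and SAUR28 were unread in Col-0 SNP, where they were at least 49.9-fold and 15.9-fold lower, and had 3 reads and 1 read in ap1/cal SNP. The median change of the cluster was -5.10 in ap1/cal and -5.69 in Col-0, or -4.83 in ap1/cal and -5.50 in Col-0 with unread members at their bound.

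On chromosome 4, SAUR14, SAUR15 and SAUR16 lie together. SAUR15, known as SAUR-AC1, is a classical auxin-induced gene, and SAUR14 and SAUR16 are induced in cotyledons when seedlings come into light. SAUR16 (AT4G38860) was among the most abundant members in Mock, with 6.15, 1.66 and 3.84 in the ap1/cal SNP libraries, against 629, 577 and 645 in the ap1/cal Mock libraries, and 8.72, 8.31 and 14 in the Col-0 SNP libraries, against 937, 787 and 847 in the Col-0 Mock libraries. All SNP values were at most 14.0 and all Mock values at least 577, and the log2 fold change by limma was -7.10 (SE 0.29, adjusted p = 6.5e-11) in ap1/cal and -6.27 (SE 0.29, adjusted p = 3.4e-10) in Col-0. SAUR14 (AT4G38840) had 12.3, 19.9 and 11.5 in the ap1/cal SNP libraries, against 577, 534 and 629 in the ap1/cal Mock libraries. In Col-0 it had 5.23, 15 and 19.8 in the SNP libraries, against 927, 694 and 912 in the Mock libraries. It kept 2.51% of its Mock mean in ap1/cal and 1.58% in Col-0. SAUR15 (AT4G38850) had 0, 3.31 and 0 in the ap1/cal SNP libraries, against 55.7, 38.6 and 52.1 in the ap1/cal Mock libraries. The Col-0 SNP libraries held 3.49, 4.16 and 4.67, against 52.2, 50.7 and 60.6 in the Col-0 Mock libraries. Its Mock over SNP ratio in ap1/cal, on 2 reads in SNP, was 48.9 (13.4 to 406), and its log2 fold change in Col-0 was -3.45 (SE 0.48, adjusted p = 1.7e-05) by limma. Per kilobase of transcript, SAUR14, SAUR78, SAUR32, SAUR6 and SAUR16 were the 5 highest members in Mock in both genotypes, with mean values per kb of 996, 1170.5, 775, 603 and 589 in ap1/cal and of 1451, 1069, 857, 829.6 and 818 in Col-0.

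A second run on chromosome 4, SAUR1, SAUR3, SAUR4, SAUR5, SAUR49 and SAUR50, fell less far. All 6 were called lower in both genotypes, with a median of -2.62 in ap1/cal and -2.03 in Col-0. SAUR50 (AT4G34760), also induced by light in cotyledons, had 23.6, 16.6 and 13.4 in the ap1/cal SNP libraries, against 284, 299 and 267 in the ap1/cal Mock libraries. With SNP, Col-0 gave 13.9, 24.1 and 18.7, against 327, 283 and 310.1 in Col-0 Mock. Its log2 fold change was -3.95 (SE 0.21, adjusted p = 1.1e-09) in ap1/cal and -3.98 (SE 0.21, adjusted p = 1.4e-09) in Col-0 by limma. The neighbours SAUR4 and SAUR5 kept 26.8% and 26.1% of their Mock mean in ap1/cal, and 40.6% and 44.3% in Col-0. SAUR1 (AT4G34770) was the least even member, with 8.2, 0 and 9.6 in the ap1/cal SNP libraries, against 40.3, 54.3 and 46.3 in the ap1/cal Mock libraries. Col-0 seedlings showed 0, 12.5 and 14 with SNP, against 50.7, 41.3 and 49.3 in Mock. In each genotype 1 SNP library was at 0 and the others near 10. Without replicate 1 of Col-0 SNP the fall of SAUR1 in Col-0 was no longer called (limma, adjusted p = 0.0548).

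The 3 other clusters were mixed. On chromosome 2, SAUR6 (AT2G21210) had 70.2, 40.3 and 76.8 in the ap1/cal SNP libraries, against 820.5, 779 and 937 in the ap1/cal Mock libraries. The values in Col-0 were 36.4, 78.7 and 86.1 with SNP, against 1289, 929 and 1271 in Mock. It fell to 7.38% of its Mock mean in ap1/cal and 5.76% in Col-0, and its neighbour SAUR7 (AT2G21200) was also called lower in both. The gene models of SAUR6 and SAUR7 overlap on the same strand and share windows, so reads may have been split between them. SAUR12 (AT2G21220), next to them, kept 72.1% of its Mock mean in ap1/cal and 77.1% in Col-0 and was not called. On chromosome 1, SAUR51 (AT1G75580) had 60.5, 91.1 and 48 in the ap1/cal SNP libraries, against 47.6, 42.5 and 39.5 in the ap1/cal Mock libraries, and 73.2, 74 and 58.3 in the Col-0 SNP libraries, against 81.1, 67.7 and 70.3 in the Col-0 Mock libraries. Its log2 fold change was 0.56 (SE 0.21, adjusted p = 0.0266) in ap1/cal and -0.09 (SE 0.21, adjusted p = 0.701) in Col-0 by limma, under the fold for a call in both genotypes. SAUR52 (AT1G75590) had 15.4, 19.9 and 21.1 in the ap1/cal SNP libraries, against 8.79, 15.2 and 20.3 in the ap1/cal Mock libraries. In Col-0 it had 36.6, 37.4 and 30.3 in the SNP libraries, against 16.4, 16.9 and 16.1 in the Mock libraries. The Col-0 SNP values lay above all Col-0 Mock values, with a log2 fold change of 1.03 (SE 0.28, adjusted p = 0.00493), while the ap1/cal values overlapped, at 0.39 (SE 0.28, adjusted p = 0.221). SAUR53 (AT1G19840), the only tested member of its pair, had 32.8, 18.2 and 19.2 in the ap1/cal SNP libraries, against 52, 51.7 and 37.6 in the ap1/cal Mock libraries. The Col-0 SNP libraries held 34.9, 48.2 and 52.5, against 44.5, 39.5 and 50.1 in the Col-0 Mock libraries. It was called lower in ap1/cal, at -1.01 (SE 0.25, adjusted p = 0.00226) by limma, and not in Col-0, at 0.00 (SE 0.25, adjusted p = 0.993). The difference of these responses missed the threshold, at -1.02 (SE 0.36, adjusted p = 0.057), and passed it with the replicate number as a block (adjusted p = 0.0486).

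**Figure D2:**
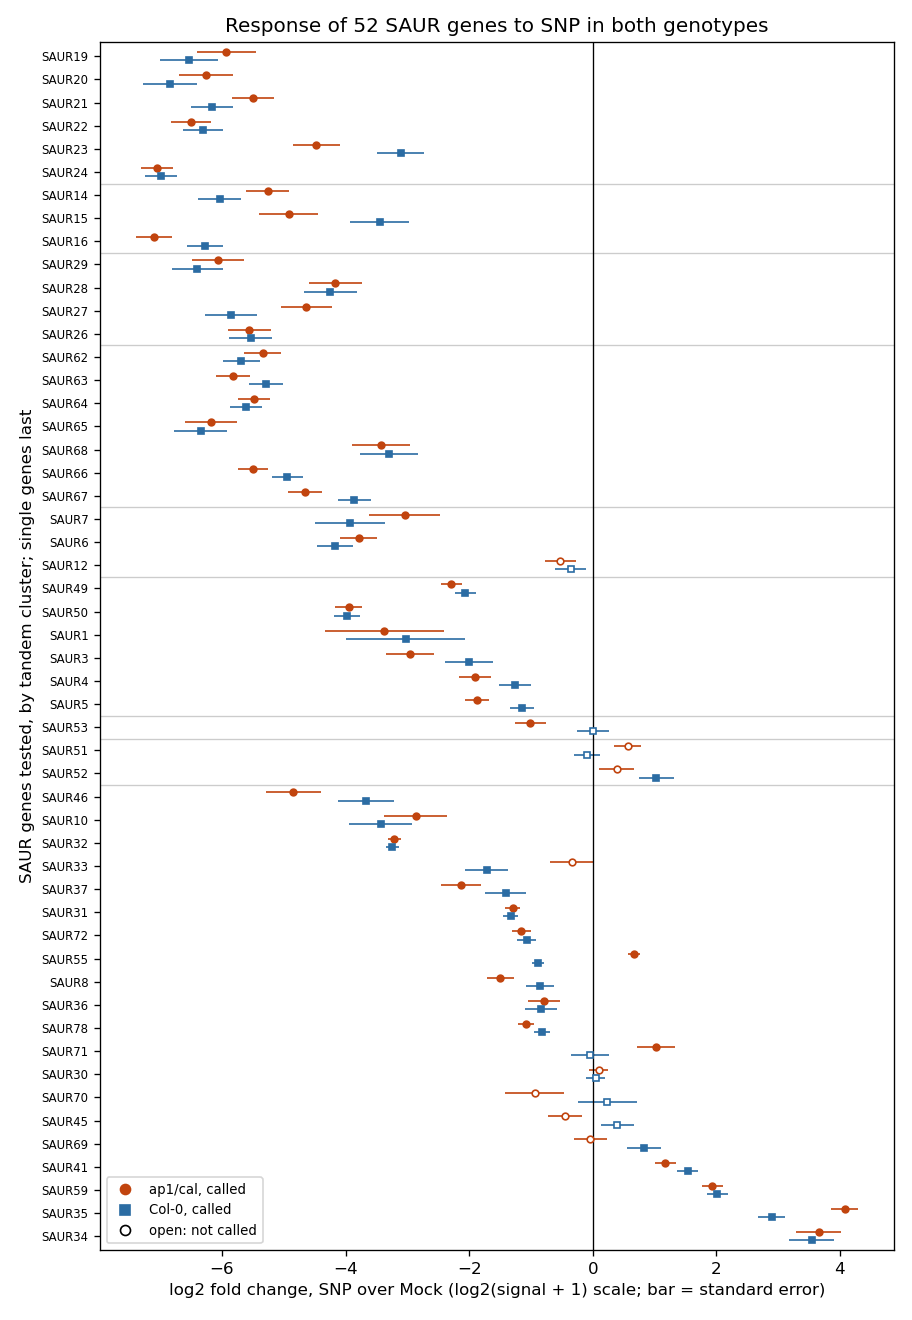
Log2 fold change of SNP over Mock, on the log2(signal + 1) scale with its standard error, for the 52 SAUR genes in ap1/cal (circles) and Col-0 (squares), with open symbols for genes not called. The 4 upper clusters lie at or below -3, and the rises are nearly all among the single genes at the bottom. Points of SAUR19, SAUR22, SAUR24, SAUR26, SAUR27, SAUR28, SAUR68, SAUR46 and SAUR10 with no read in SNP depend on the added 1 and are no bound.

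Among the single members, SAUR32 (AT2G46690), which acts in the apical hook, had 68.7, 71.2 and 82.5 in the ap1/cal SNP libraries, against 690.1, 718 and 674 in the ap1/cal Mock libraries. With SNP, Col-0 gave 75, 81.5 and 84, against 837, 693 and 773 in Col-0 Mock. The log2 fold change was -3.21 (SE 0.10, adjusted p = 7e-12) in ap1/cal and -3.24 (SE 0.10, adjusted p = 1.1e-11) in Col-0 by limma, the same to within 1 SE. SAUR78 (AT1G72430), whose protein binds an ethylene receptor, kept more, with 745, 598 and 660.3 in the ap1/cal SNP libraries, against 1415, 1225 and 1591 in the ap1/cal Mock libraries. Col-0 seedlings showed 736, 623 and 837 with SNP, against 1356, 1144 and 1365 in Mock. It was called lower at -1.07 (SE 0.13, adjusted p = 3.1e-06) in ap1/cal and -0.82 (SE 0.13, adjusted p = 4.9e-05) in Col-0 by limma. SAUR36 (AT2G45210), also named SAG201 and known to promote leaf senescence, was lower too, at -0.79 (SE 0.26, adjusted p = 0.013) in ap1/cal and -0.84 (SE 0.26, adjusted p = 0.0104) in Col-0 by limma. That call in ap1/cal was lost without SNP replicate 2 (adjusted p = 0.0656) or Mock replicate 3 (adjusted p = 0.0519). SAUR46 (AT2G37030) was unread in ap1/cal SNP and at least 19.5-fold lower there, and on 2 reads its Mock over SNP ratio in Col-0 was 27.6 (7.37 to 232). SAUR10 (AT2G18010) was at least 8.89-fold lower in Col-0 and had a ratio of 18.3 (3.11 to 740.2) in ap1/cal on 1 SNP read. SAUR31, SAUR37, SAUR72 and SAUR8 were lower in both genotypes, with log2 fold changes between -2.13 and -0.86. SAUR8 and SAUR31 overlap genes on the opposite strand.

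The rises were fewer. SAUR59 (AT3G60690), whose coding part is longer than that of most SAUR genes, was the most abundant member after SNP by signal, with 1293, 954 and 1315 in the ap1/cal SNP libraries, against 309, 266 and 348 in the ap1/cal Mock libraries. The values in Col-0 were 1846, 1499 and 1740.2 with SNP, against 516, 321 and 437 in Mock. Every SNP value was above every Mock value, the mean was 3.86-fold higher in ap1/cal and 3.99-fold higher in Col-0, and the log2 fold change was 1.94 (SE 0.17, adjusted p = 1.5e-07) in ap1/cal and 2.02 (SE 0.17, adjusted p = 1.3e-07) in Col-0 by limma. SAUR34 (AT4G22620) had 59.5, 38.1 and 57.6 in the ap1/cal SNP libraries, against 2.2, 3.47 and 3.86 in the ap1/cal Mock libraries, and 99.4, 73.1 and 81.6 in the Col-0 SNP libraries, against 12.5, 4.7 and 4.04 in the Col-0 Mock libraries. From few reads in Mock it was called higher in both genotypes, at 3.65 (SE 0.36, adjusted p = 5.5e-07) in ap1/cal and 3.54 (SE 0.36, adjusted p = 9.6e-07) in Col-0 by limma. SAUR41 (AT1G16510), whose overexpression promotes hypocotyl elongation, had 72.8, 56.3 and 69.1 in the ap1/cal SNP libraries, against 23.4, 29.5 and 33.8 in the ap1/cal Mock libraries. In Col-0 it had 141, 159 and 136 in the SNP libraries, against 49.9, 47.9 and 50.1 in the Mock libraries. The rise was 2.29-fold in ap1/cal and 2.95-fold in Col-0, with a log2 fold change of 1.17 (SE 0.17, adjusted p = 2.3e-05) in ap1/cal and 1.54 (SE 0.17, adjusted p = 1.9e-06) in Col-0 by limma. With library-size scaling the rise of SAUR41 in ap1/cal was 0.48 and no longer called, nor were those of SAUR71 in ap1/cal (0.37), SAUR52 in Col-0 (0.55) and SAUR69 in Col-0 (0.36). All genes had a median of -0.74 in ap1/cal and -0.51 in Col-0 under that scaling. With upper-quartile scaling the rises of SAUR71 in ap1/cal (0.68) and SAUR69 in Col-0 (0.59) were also not called. Of the same subfamily as SAUR41, SAUR71 was also called higher in ap1/cal, while SAUR71 in Col-0 and SAUR72 in both genotypes were not. SAUR72 was lower in both genotypes, and SAUR71 (AT1G56150) had 24.6, 23.2 and 17.3 in the ap1/cal SNP libraries, against 13.9, 12.2 and 5.79 in the ap1/cal Mock libraries. The Col-0 SNP libraries held 27.9, 26.6 and 21, against 29.6, 25.4 and 22.6 in the Col-0 Mock libraries. SAUR71 was called higher in ap1/cal, at 1.03 (SE 0.31, adjusted p = 0.00706), and not in Col-0, at -0.04 (SE 0.31, adjusted p = 0.91) by limma, and the difference of the 2 responses missed the threshold, at 1.07 (SE 0.43, adjusted p = 0.0919). SAUR69 (AT5G10990) had 13.3, 16.6 and 13.4 in the ap1/cal SNP libraries, against 14.7, 15.2 and 14.5 in the ap1/cal Mock libraries. With SNP, Col-0 gave 17.4, 30.8 and 30.3, against 16.4, 14.1 and 11.3 in Col-0 Mock. Its rise in Col-0, 0.84 (SE 0.27, adjusted p = 0.0136) by limma, was not called when SNP replicate 2, SNP replicate 3 or Mock replicate 3 was left out (adjusted p of 0.0592, 0.0566 and 0.0557).

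The upstream stretch of SAUR59 is shown because it was the 1 tested member whose window held the G-box CACGTG, which PIF and other factors can bind, and CGTGTG, an element of brassinosteroid response. It lies at chr3:22434664-22434863 (forward strand) of RefSeq TAIR10.1 and ends at the annotated gene start, with matches in capitals.
SAUR59: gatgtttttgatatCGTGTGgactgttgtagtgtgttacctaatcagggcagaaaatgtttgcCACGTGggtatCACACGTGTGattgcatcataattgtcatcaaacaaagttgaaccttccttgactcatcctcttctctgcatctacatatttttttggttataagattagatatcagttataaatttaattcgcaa
CACGTG was found on either strand in the 250-base windows of 5.39% of all annotated nuclear genes and CGTGTG in those of 5.06%. Among the genes tested the shares were 7.49% for CACGTG and 5.60% for CGTGTG. In SAUR59 there were 2 matches of the first and 3 of the second, and within the run CACACGTGTG they overlap. CGTGCG, another brassinosteroid element, was found in SAUR46 (1 of 52 members, 1.92%), against 1.39% of all windows and 1.74% of those of genes tested.

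The question whether ap1/cal and Col-0 respond differently was addressed by the difference of the responses, ap1/cal minus Col-0. Of the 52 members, 2 were called more positive in ap1/cal and 0 more negative, where 7.6% and 6.97% of all genes were called in those directions. By limma's unadjusted p below 0.05, 5 were more positive and 6 more negative. SAUR55 (AT5G50760) had 835, 837 and 743 in the ap1/cal SNP libraries, against 514, 480.1 and 519.9 in the ap1/cal Mock libraries. Its Col-0 values were 291, 341 and 342 in the Col-0 SNP libraries, against 637, 529 and 632 in the Col-0 Mock libraries. All ap1/cal SNP values lay above the ap1/cal Mock values, and all Col-0 SNP values below the Col-0 Mock values. The log2 fold change was 0.67 (SE 0.10, adjusted p = 2.2e-05) in ap1/cal and -0.88 (SE 0.10, adjusted p = 1.8e-06) in Col-0 by limma, and the difference was 1.55 (SE 0.14, adjusted p = 6.4e-05). With library-size scaling the response in ap1/cal was -0.04 and no longer called, against a median of -0.74 over all genes under that scaling. With upper-quartile scaling it was 0.30, against an all-gene median of -0.40, and was not called either. Tested against a fold of 1.5, the rise in ap1/cal was not called (limma, adjusted p = 0.336). The difference was called in all 24 alternatives that gave it. SAUR35 (AT4G12410) had 100.5, 142 and 123 in the ap1/cal SNP libraries, against 5.86, 6.08 and 6.75 in the ap1/cal Mock libraries. Col-0 seedlings showed 78.4, 54.9 and 61.8 with SNP, against 7.8, 7.52 and 8.07 in Mock. It rose in both genotypes, 19.6-fold in ap1/cal and 8.34-fold in Col-0, with a log2 fold change of 4.08 (SE 0.22, adjusted p = 8.2e-10) in ap1/cal and 2.89 (SE 0.22, adjusted p = 3.8e-08) in Col-0 by limma. The difference was 1.18 (SE 0.31, adjusted p = 0.0143), and it was not called against a fold of 1.5 (adjusted p = 0.561). SAUR53, described above, and SAUR33 lay just outside the threshold. SAUR33 (AT3G61900) had 17.4, 13.3 and 19.2 in the ap1/cal SNP libraries, against 22, 23 and 18.3 in the ap1/cal Mock libraries. The values in Col-0 were 5.23, 15.8 and 5.83 with SNP, against 29.6, 24.4 and 31.5 in Mock. Its difference was 1.38 (SE 0.49, adjusted p = 0.0605) by limma, which missed the threshold, and it was called with pseudocount 10 (0.83, adjusted p = 0.0469) and without Col-0 SNP replicate 2 (1.83, adjusted p = 0.00554), the library with the highest of the 3 values.

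**Figure D3:**
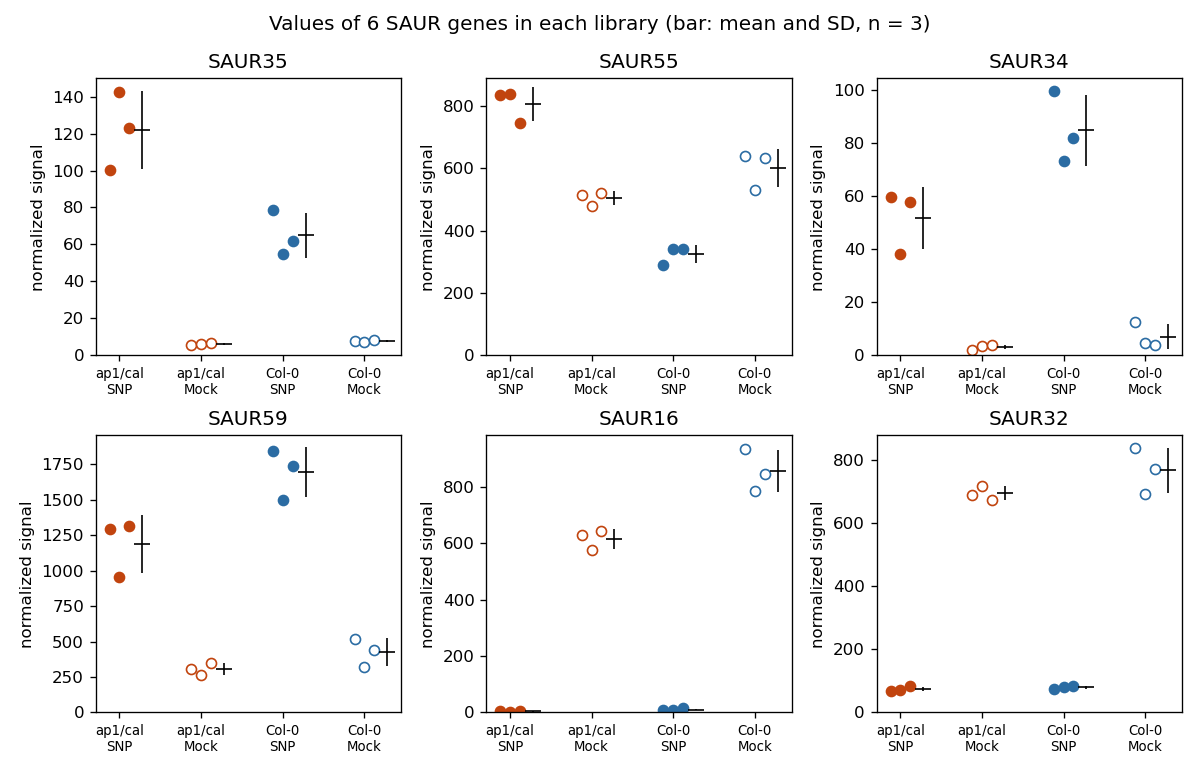
Normalized signal per library (filled, SNP; open, Mock) of 6 SAUR genes in ap1/cal and Col-0, with the mean and SD of the 3 libraries beside each group. SAUR35 and SAUR55 are the members whose response differed between genotypes, SAUR34 and SAUR59 were higher with SNP in both, and SAUR16 and SAUR32 were lower in both.

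The coding part of the tested members ranged from 261 to 573 bases in RefSeq, and 48 of the 52 have a single exon. The shorter members fell more. Of the 22 with up to 330 coding bases, 20 were called lower and 0 higher in each genotype, with a median change of -4.55 in ap1/cal and -4.11 in Col-0. Of the 15 with more than 330 and up to 430 bases, 11 were lower and 1 higher in ap1/cal (median -1.88), and 12 were lower and 0 higher in Col-0 (median -1.72). Of the 15 with more than 430 bases, 7 were lower and 5 higher in ap1/cal (median -0.79), and 7 were lower and 6 higher in Col-0 (median 0.00). These length classes were set after earlier results were known. Across the 52 members, Spearman's correlation of coding length with the log2 fold change was 0.53 in ap1/cal and 0.55 in Col-0, and that of the Mock signal per kilobase with the log2 fold change was -0.45 in ap1/cal and -0.44 in Col-0. Copies of a cluster share sequence and position, and the Mock level also enters the fold change, so these are descriptions.

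**Figure D4:**
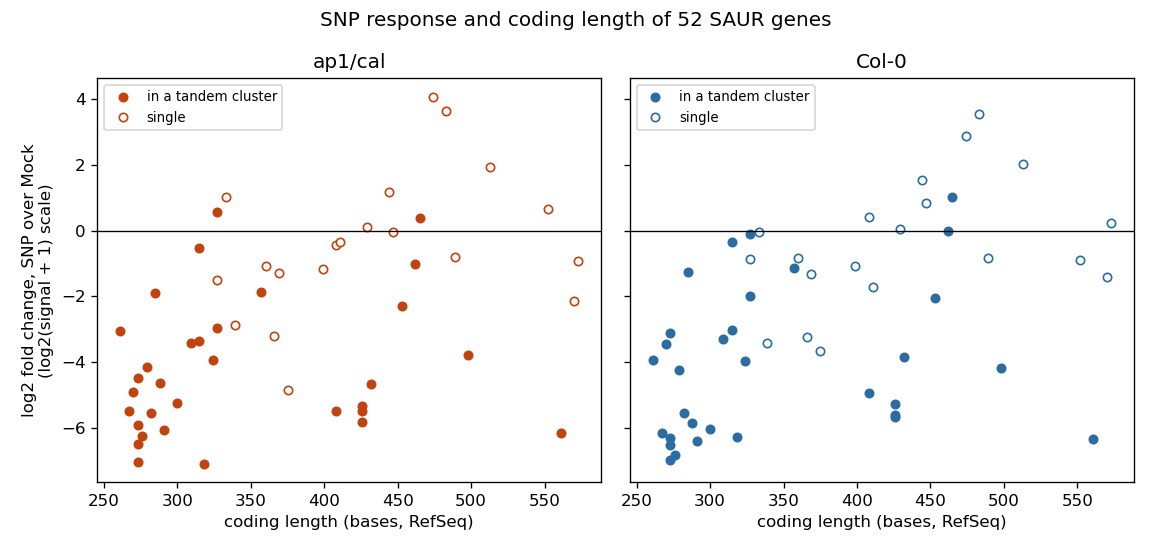
Log2 fold change of SNP over Mock against coding length in bases for the 52 SAUR genes in ap1/cal (left) and Col-0 (right), with filled points for genes of tandem clusters and open points for single genes. Genes under 330 bases lie mostly below -2, and the rises above 1 are at 333 bases or more, with SAUR65 at 561 bases the longest gene among the deep falls.

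RefSeq names 23 further SAUR genes that are not members. Of these, 15 were in both tables and 12 passed the minimum. In ap1/cal, 6 were called lower and 4 higher, with a median of -0.41, against 33.0% and 29.8% of all genes. In Col-0, 5 were lower and 4 higher, with a median of 0.00, against 29.1% and 26.9% of all genes. The list of members was drawn up with results of these data in view, so no conclusion is drawn from listed against unlisted SAUR genes. One of the 12, SAUR61 (AT1G29420), which lies beside the SAUR62 to SAUR68 cluster, was called more negative in ap1/cal in the difference, at -1.78 (adjusted p = 0.0411 by limma). It had 0 in all 3 ap1/cal SNP libraries, against 22, 17.8 and 10.6 in the ap1/cal Mock libraries, and 3.78, 2.7 and 3.79 in the Col-0 SNP libraries, against 29.6, 13.6 and 22.7 in the Col-0 Mock libraries, so this value rests on the added 1. Of the 9 genes of PP2C-D phosphatases, the partners of SAUR proteins, 2 were called lower and 3 higher in ap1/cal, where 33.0% and 29.8% of all genes were, and 1 lower and 2 higher in Col-0, where 29.1% and 26.9% were, with medians of 0.30 in ap1/cal and -0.11 in Col-0. AT5G02760 averaged 34.8 ± 11.5 in ap1/cal SNP and 465 ± 73.4 in ap1/cal Mock (SD, n = 3 each), a log2 fold change of -3.73, while AT4G33920 averaged 5854 ± 254 in ap1/cal SNP and 912 ± 72.2 in ap1/cal Mock, a log2 fold change of 2.68. In Col-0 the change was -3.64 for AT5G02760 and 2.77 for AT4G33920. Of 9 proton pump genes tested, 4 were lower in ap1/cal and 5 in Col-0, and 0 higher. AHA2 (AT4G30190), the main pump of roots, changed by -2.15 in ap1/cal and -2.20 in Col-0 and was called lower in both.

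Upstream of the SAUR genes, 5 of the 6 TIR1/AFB auxin receptor genes were called lower in ap1/cal and 4 of 6 in Col-0, with medians of -1.06 in ap1/cal and -1.05 in Col-0, and 0 were higher. Of 5 activating auxin response factor genes, 3 were lower in each genotype and 0 higher, among them ARF8 (AT5G37020), at -2.19 in ap1/cal and -2.09 in Col-0. Of all genes, 33.0% were called lower in ap1/cal and 29.1% in Col-0. Of 6 growth regulators of the PIF and BZR1 groups, 1 was lower and 2 higher in each genotype, against 29.8% of all genes called higher in ap1/cal and 26.9% in Col-0. PIF4 (AT2G43010), which activates SAUR genes in warmth and shade, was the lower one, at -1.96 in ap1/cal and -2.00 in Col-0, and BZR1 (AT1G75080) and PIF3 (AT1G09530) were higher, BZR1 at 0.88 in ap1/cal and 0.82 in Col-0, and PIF3 at 0.93 in ap1/cal and 0.63 in Col-0. Over these 5 lists of auxin and growth partners, 0 of the 35 genes tested were called in the difference of the responses, and by limma's unadjusted p below 0.05, 4 were more positive and 6 more negative in ap1/cal. Of all genes, 7.6% were called more positive and 6.97% more negative. Of the 35, 3 passed the adjusted p and missed only the fold, AT3G17090 (0.36), AHA3 (AT5G57350, 0.46) and the PP2C-D gene AT3G51370, at 0.30 in ap1/cal and -0.28 in Col-0, a difference of 0.57 (adjusted p = 0.00225 by limma).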

How the data were processed

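The deposited tables, 1 per genotype with 6 libraries each, hold a normalized signal per gene rather than raw counts. The authors aligned reads with STAR to TAIR10, per the labels and methods, and the values behave as estimated reads divided by 1 size factor per library, each table on its own. In every library 100% of the low values (up to 50) of genes with 1 transcript were whole multiples of the value of 1 read, within a tolerance of 0.001, but of all low values 68.1 to 73.2% were, so no count test was run. The counting tool is not given in the sources used here. The methods passage on RNA sequencing describes shoot apices, a tissue not among these libraries, whose labels give seedlings.

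Groups and replicate numbers came from the labels, and 0 columns lacked a sample. Genes held by both tables that reached 10 in 3 or more libraries were tested as log2(value + 1) with limma 3.58.1 in R 4.3.3 (4 group means, empirical Bayes with trend, Benjamini-Hochberg adjustment), in 1 fit of all 20623 genes. Levels were not tested across genotypes. Read floors (3 reads over a group) and exact intervals cover counting error only, since reads carry no molecular identifiers. Same-numbered SNP and Mock libraries deviated together in ap1/cal (r of 0.12, 0.12 and 0.17 for replicates 1, 2 and 3) and not in Col-0 (0.06, 0.06 and -0.05), and the fit with the replicate number as a block is an alternative. Values per library are given for the 5 deepest falls and the 5 largest rises called in each genotype, the members called in the difference, the highest member of each cluster and some others. Gene models came from RefSeq TAIR10.1, to which 99.3% of the gene identifiers matched, all 56 members included. On simulated tables of 20388 genes the fit called 182 of 197 changed genes and 10 unchanged ones in the Col-0 contrast, and 142 of 197 changed and 8 unchanged ones in the difference of responses. There only these few genes changed, in Col-0 SNP alone, with the same spread setting for every gene, so the rates need not hold for these data. The members, lists, motifs and length classes were chosen with earlier results of these data known. Expression of AP1 and CAL could not serve as a check of the genotype labels.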

Additional observations from a re-analysis of the deposited data

Results flagged for a closer look

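For 2 SAUR genes the test of the difference of responses, ap1/cal minus Col-0, passed the threshold. SAUR55 (AT5G50760) differed by 1.55 on the log2(value + 1) scale, higher with SNP in 3 of 3 ap1/cal libraries and lower in 3 of 3 Col-0 libraries than in any Mock library of the same genotype. SAUR35 (AT4G12410) differed by 1.18, with a rise in 3 of 3 SNP libraries of both genotypes. Both came from 52 members tested, where 7.6% of all genes were called in that direction.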

How the results depend on the processing

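Of the 89 member responses called within a genotype, 77 kept their direction and their call in every one of the 25 alternatives that tested the member. The others lost their call under a stricter fold, another scaling or pseudocount, or with 1 library left out. Among them was SAUR1 in Col-0, at -3.03. A minimum of 50 left low members untested, so their calls could not be checked there. With that minimum, 29 members were called lower in Col-0, against 39, and 4 higher, against 6. In ap1/cal, 29 were called lower, against 38, and 5 higher, against 6. With library-size scaling 3 members were called higher in ap1/cal, against 6 with the deposited scaling (SAUR41, SAUR55 and SAUR71 were lost), and 44 were called lower. Of all 104 member responses, 77 kept direction and call throughout, none of them uncalled. With library-size or upper-quartile scaling SAUR12 was called lower in both genotypes, and SAUR45 and SAUR70 in ap1/cal. With upper-quartile scaling these ap1/cal changes were -0.88, -0.80 and -1.27. With library-size scaling SAUR30, SAUR33 and SAUR69 were called lower in ap1/cal, and SAUR51 in Col-0. SAUR51 was called higher in ap1/cal without SNP replicate 3 (0.77). Signs turned for members near 0. With library-size scaling the change of SAUR55 in ap1/cal was -0.038, of SAUR51 and SAUR52 in ap1/cal -0.13 and -0.28, of SAUR45 and SAUR70 in Col-0 -0.080 and -0.19, of SAUR53 in Col-0 -0.49, and of SAUR30 -0.61 in ap1/cal and -0.45 in Col-0. With upper-quartile scaling SAUR53 in Col-0 was at -0.25, and SAUR30 at -0.27 in ap1/cal and -0.21 in Col-0. With equal library medians SAUR53 in Col-0 was at -0.013. The median of SAUR51 and SAUR52 was -0.21 in ap1/cal and -0.0183 in Col-0 with library-size scaling, and -0.094 in Col-0 with a minimum of 50, which left SAUR51 alone. With 1 library left out at a time, the change in Col-0 lay between -0.11 and 0.17 for SAUR53, -0.13 and 0.080 for SAUR71, -0.15 and 0.016 for SAUR51, -0.34 and 0.77 for SAUR70, and -0.023 and 0.13 for SAUR30. In ap1/cal it lay between -0.13 and 0.014 for SAUR69 and between -0.079 and 0.21 for SAUR30.

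In the difference of responses, the count of 0 members more negative in ap1/cal became 1 with pseudocount 10, 3 with library-size scaling, 2 with upper-quartile scaling and 1 without the variance trend. It was 0 to 3 with 1 library left out, with 3 without Col-0 SNP replicate 1 or ap1/cal SNP replicate 1, 2 without ap1/cal SNP replicate 3, and 1 without ap1/cal SNP replicate 2 or ap1/cal Mock replicate 3. Of these members SAUR53 was called under 7 alternatives. The count of members more positive, 2, was 1 against a fold of 1.5, 3 with pseudocount 10 and 2 to 4 with 1 library left out, where 4 came without ap1/cal SNP replicate 3 and 3 without Col-0 SNP replicate 2. With the replicate block, 1 member, SAUR53, was more negative, and the block changed no other call of a member. The cause of these shifts was not tested. Pseudocount 10 made the cluster medians smaller by construction. In SNP, members with 0 to 3 reads over a group (14 in ap1/cal and 13 in Col-0) set only a bound or a wide interval on their fall, and depth limits any ranking among them.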
